A study of Homo sapiens with 8 samples.

Results

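The genes followed here belong to small cytokine families. They are IL7, IL15, IL15RA, IL18, IL18BP, IL33, IL34, CSF1, CSF2 and CSF3, taken by symbol from the expression tables, 10 of 60558 genes. The 8 RNA-seq libraries came from 2D human intestinal epithelial cells (hIECs) that had been derived from the human embryonic stem cell line H9. There were 4 groups of 2 libraries. Normal hIECs were left untreated, and normal hIECs with PM10 received 100 μg/ml of PM10, airborne particulate matter, for 7 days. Inflamed hIECs were kept for 10 days with IFNγ and TNFα, each at 50 ng/ml, and inflamed hIECs with PM10 also had PM10 at the same dose in the last 7 of those days. All cells came from 1 line, and the labels do not say whether the 2 libraries of a group were separate cultures, so p-values measure only the spread between these libraries. Levels are in FPKM, a count of fragments divided by transcript length and sequencing depth, a scale per length on which genes can be compared with each other.

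These cytokines carry signals between lining, stromal and immune cells. IL7 and IL15 signal through the common gamma chain, JAK kinases and STAT5 and keep lymphocytes alive, and IL15 is usually shown to neighbouring cells while bound to its own receptor chain IL15RA. IL18 and IL33 belong to the IL1 family and are released by damaged or inflamed epithelium, IL18 after cleavage by caspase-1, and IL18BP is a secreted decoy that binds IL18 and blocks it. CSF1 and IL34 are unrelated in sequence but share the receptor CSF1R on macrophages, while CSF2 and CSF3 drive the growth of granulocytes and macrophages.

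In the libraries with IFNγ and TNFα, IL15 and IL15RA were read at levels of 4.77 to 5.36 FPKM and 17.9 to 19.7 FPKM after being listed at 0 without them, CSF1 was 5.09 to 6.08 times higher, IL34 was 2.74 to 5.08 times higher and IL18BP was 2.88 to 4.12 times higher. IL7 was raised on a much lower scale, and IL18 did not pass the test without PM10. In the groups with PM10, IL18 averaged 0.376 FPKM without and 0.791 FPKM with cytokines, 2.11 times higher, a call lost when any 1 of 3 libraries was left out. For PM10 in normal hIECs, IL34 was called higher, where 5.51% of all genes were. IL18 was called lower, but it reached 1 FPKM only without PM10, so its call is not read against a share of all genes. Both of these calls were lost without replicate 2 of normal hIECs with PM10 (limma adjusted p = 0.0559 and 0.0948) or when the fit held just the 2 groups (0.112 and 0.131), and that of IL18 also without normal hIECs replicate 2 (0.0587). For PM10 in inflamed hIECs none of the 6 genes tested was called, where 15.2% of all genes were, so the count does not set these genes apart. IL33, CSF2 and CSF3 were listed at 0 in all 8 libraries.

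The labelled cell type was compared with its markers before the results. Of 12 intestinal epithelial markers, VIL1, CDX2, LYZ, MUC2, CHGA and KRT20 were listed at 0 in every library, EPCAM did not exceed 0.622 FPKM, and CDH1 was above 0 in 1 library only. KRT8 averaged 378 FPKM and KRT18 averaged 266 FPKM in normal hIECs. The epithelial stem and progenitor markers LGR5, at 2.01 to 8.28 FPKM, and SOX9, at 3.66 to 14.97 FPKM, were read in all 8 libraries. All 10 mesenchymal markers were read in every library, with COL1A1 between 408 and 681 FPKM, and they summed to between 4350 and 5731 FPKM. The most abundant was COL3A1, at 1014 to 1035 FPKM, in the 4 libraries without cytokines and TAGLN, at 1350 to 1389 FPKM, in the 4 with them. Of 4 neuronal markers, STMN2, at 52.5 to 131 FPKM, TUBB3 and SNAP25 were read in all libraries and ELAVL4 was at 0. Defining markers of blood cells and endothelium were nearly absent. CD14, ITGAM, CD163, CD3E and MS4A1 were listed at 0 throughout, as were all 4 endothelial markers, and the 8 blood and macrophage markers summed to 0.399 to 3.87 FPKM, led by AIF1 in 5 libraries and by CD68 in inflamed hIECs replicate 1 and both libraries of inflamed hIECs with PM10. The data therefore went against a mature intestinal epithelium, and hIECs is used below only as the name of the groups. In bulk RNA, fewer cells of a type and less RNA per cell cannot be told apart.

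Genes known to answer the treatments were read next. CXCL10, an interferon-induced chemokine, averaged 1.50 FPKM in normal hIECs and 1299 FPKM in inflamed hIECs. CYP1B1, a target of the aryl hydrocarbon receptor, averaged 6.43 FPKM in normal hIECs, 64.3 FPKM in normal hIECs with PM10, 36.7 FPKM in inflamed hIECs and 254 FPKM in inflamed hIECs with PM10, so it was higher with PM10 in both backgrounds and also with cytokines alone (log2 difference 2.35, limma, adjusted p = 2.98e-07). CYP1A1, another target of that receptor, did not exceed 0.515 FPKM and was above 0 in 3 of the 4 PM10 libraries and in none of the others. One library stood apart in composition. In normal hIECs replicate 2, mitochondrial transcripts held 24.2% of the summed FPKM, against 15.5% to 20.4% in the other 7 libraries. On the log2(FPKM + 1) scale the 2 normal libraries also differed more, with a median SD per gene of 0.085 against 0.049 to 0.053 in the other groups.

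A value of 0 has a floor behind it. The lowest FPKM above 0 in a library lay between 0.164 and 0.228 and was shared by 27 to 43 genes, which was read as a mean depth of 1 over a transcript. A value of 1 FPKM then stood for a mean depth of 4.38 to 6.11. None of 11 housekeeping genes was at 0 in any library, and their lowest value was 7.52 FPKM. The files hold no read counts, so no counting interval is given, and a gene listed at 0 may still be present under this floor.

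Short stretches before annotated start sites of 2 of the induced genes are shown first. Each lies within the annotated span of its gene. Their windows hold letters known to bind factors of interferon and stress signalling, and any link between these letters and expression was not tested. RefSeq windows (GRCh38.p14) from 250 bases before to 50 after a start site were given for 4 of the 10 genes, IL15RA, IL18BP, IL33 and CSF2, with 11 windows among them. Both strands were searched for GAS (TTCNNNGAA, the interferon-gamma activated sequence), the ISRE core (GAAA, any 2 bases and GAAA again, bound by interferon regulatory factors), AP-1 (TGANTCA), the XRE core (TNGCGTG, bound by the aryl hydrocarbon receptor) and the NF-kB motif. Of 34943 windows of the same length, 7.66% held GAS, 3.57% the ISRE core, 7.72% AP-1, 5.5% the XRE core and 11.3% the NF-kB motif. These shares are per window and motif, while several windows each of IL15RA and IL18BP were searched for all of these motifs. Capitals mark the matched letters, and each stretch reads 5′ to 3′ on the strand of its gene.
IL18BP, ISRE core: gttaaaaagtGAAAGTGAAAtagagggtcg
IL18BP, GAS: gggcagtgctTTCCCAGAAggattgctcg
IL15RA, first AP-1: gtggggacgcTGAGTCAcggatctgtc
IL15RA, second AP-1: aatcgattggTGAGTCAgccagaaaca
IL15RA, GAS: gcagcaggaaTTCGGCGAAgtggcggagc

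Both IL18BP stretches lie before the start at position 71999617 on the plus strand, the first at chr11:71999540-71999569 and the second at chr11:71999570-71999598. Counted from that start, the ISRE letters ran from -67 to -58 and the GAS letters from -37 to -29, so these matches do not overlap. The same GAS letters occur again from -7 to 1, across the start itself. The other 3 IL18BP windows held none of the 5 motifs. The IL15RA stretches are on the minus strand, at chr10:5977650-5977676 and chr10:5969035-5969061 for AP-1 and at chr10:5978155-5978183 for GAS. The first AP-1 stretch lies before the starts at 5977543 and 5977611. The second AP-1 stretch lies before a start at 5968928, well inside the gene, and the GAS stretch before a start at 5978046. Both IL18BP stretches and the IL15RA GAS stretch also overlap an annotated exon. In addition, 2 overlapping IL15RA windows held matches to the XRE core, and 1 of them to the NF-kB motif. A window each of CSF2 and IL33 held a GAS match, and both genes were listed at 0. These matches are descriptions of letters, not of binding.

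IL15 (chr4:141636583-141733987, plus strand, positions from GENCODE release 44 on GRCh38) and IL15RA (chr10:5943639-5978187, minus strand) encode the cytokine and the chain that presents it. IL15 was listed at 0 in all 4 libraries without cytokines, at 4.77 and 5.04 FPKM in inflamed hIECs, and at 5.36 and 4.90 FPKM in inflamed hIECs with PM10. IL15RA was likewise at 0 in the 4 libraries without cytokines, at 18.4 and 19.7 FPKM in inflamed hIECs, and at 17.9 and 18.6 FPKM with PM10. The groups with and without cytokines did not overlap for either gene, and the 2 cytokine groups overlapped for both. No fold is given against a group at 0. Both genes reached 1 FPKM only in the 4 cytokine libraries, so the filter on low values admitted them only through the groups in which they were high. They had to differ between groups with and without cytokines, and no p is given for that. In limma fitted to 14206 genes, with Benjamini-Hochberg adjustment within each comparison, PM10 in inflamed hIECs left IL15 at a log2 difference of 0.05 (95% interval -0.14 to 0.25) and IL15RA at -0.06 (95% interval -0.22 to 0.10), neither past the threshold.

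Where both were read, IL15RA exceeded IL15 in every library. The ratio of their FPKM was 3.85 and 3.91 in inflamed hIECs and 3.34 and 3.79 in inflamed hIECs with PM10, so the presenting chain stood between 3.34 and 3.91 times above its ligand. IL15RA shares exon positions with a long noncoding RNA that did not exceed 0.285 FPKM, and IL15 overlaps no other annotated gene.

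IL7, the lymphocyte survival cytokine, was close to the floor. It was read at 0.206 and 0 FPKM in normal hIECs and at 0 and 0.249 FPKM in normal hIECs with PM10, where the single values above 0 stand for mean depths of 1.26 and 1.24. In inflamed hIECs it was at 1.24 and 0.936 FPKM, and in inflamed hIECs with PM10 at 0.999 and 0.961 FPKM. All 4 cytokine libraries lay above the 4 others. Only 1 library reached 1 FPKM, so IL7 was under the minimum for limma and was tested alone. With against without cytokines, 4 libraries against 4, the mean of log2(FPKM + 1) was 0.87 higher, with p = 0.0286 in an exact two-sided permutation test, the smallest p that its 70 splits allow. This p follows from the separation just given, is not adjusted and ignores PM10, so it adds nothing to that separation. IL7 shares exon positions with ZC2HC1A on the opposite strand, and the libraries carry no strand information. ZC2HC1A ran the other way, with a log2 difference of -0.26 in inflamed against normal hIECs (limma, adjusted p = 0.0130). A long noncoding RNA on the opposite strand, at up to 0.797 FPKM, overlaps IL7 exons as well. How many reads of either were counted as IL7 was not tested.

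**Figure D1:**
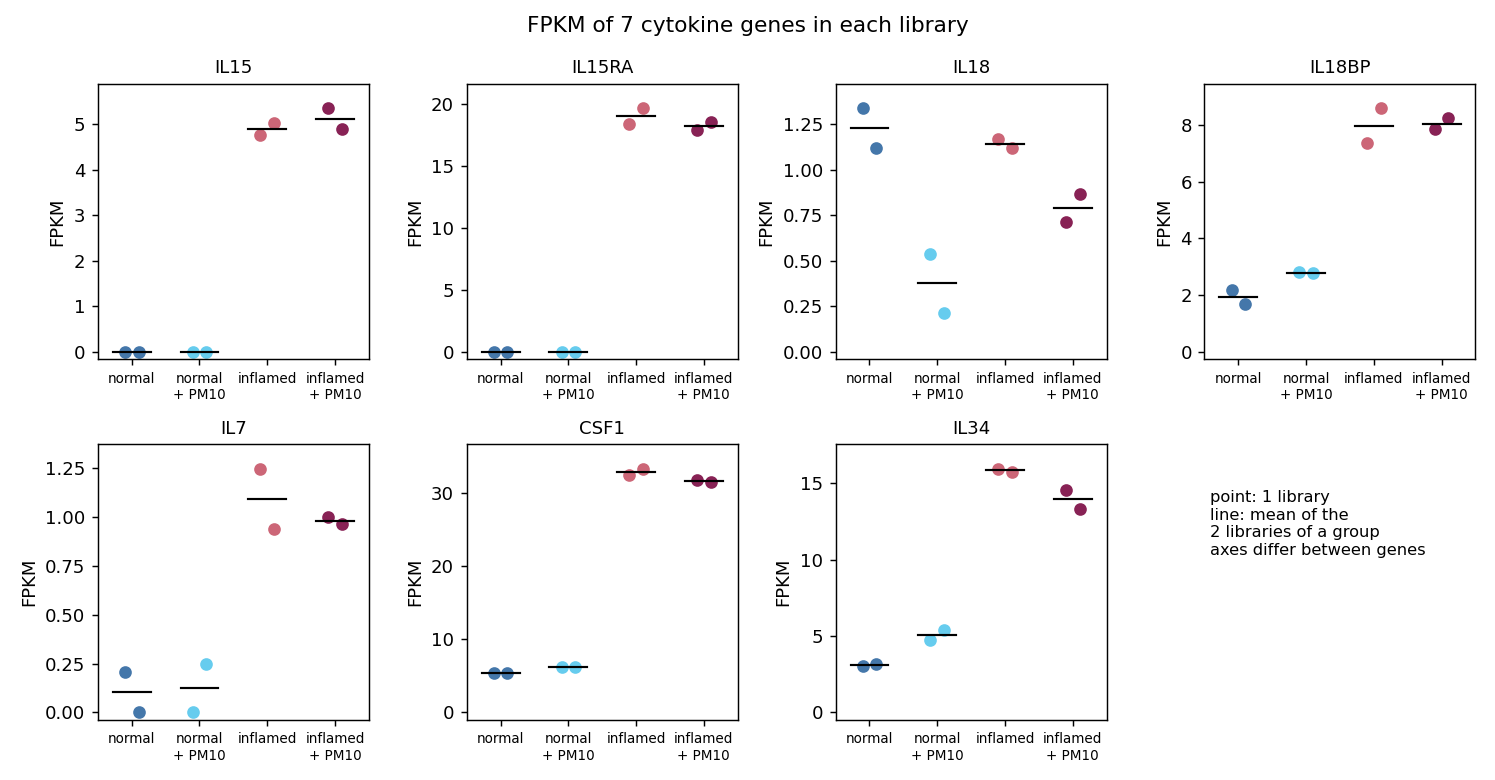
FPKM of the 7 genes read above 0 (vertical axes, each gene on its own scale) in the 4 groups, with 1 point per library and a line at the group mean of 2 libraries. IL15 and IL15RA sit at 0 without cytokines and at 4.77 to 5.36 and 17.9 to 19.7 FPKM with them, while IL18 is lowest in normal hIECs with PM10, at 0.537 and 0.215 FPKM.

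IL18 (chr11:112143253-112164096, minus strand), made as an inactive precursor, did not follow the other genes. Its values were 1.34 and 1.12 FPKM in normal hIECs, 0.537 and 0.215 FPKM in normal hIECs with PM10, 1.17 and 1.12 FPKM in inflamed hIECs, and 0.716 and 0.867 FPKM in inflamed hIECs with PM10. Normal and inflamed hIECs overlapped, and both PM10 groups lay below their partners without PM10. The lowest value stands for a mean depth of 1.07, so the fall rests on very little sequence. In normal hIECs the mean with PM10 was 0.305 times that without, and the log2 difference was -0.71 ± 0.13 (SE, limma, adjusted p = 0.0224). IL18 reached 1 FPKM only in libraries without PM10, so it met the filter only on the side where it was higher. With no filter on low values it was called as well. The pseudocount of 1 shrinks differences of a gene this low. With a pseudocount of 0.1 the difference was -1.57 (adjusted p = 0.0351).

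That call for IL18 depended on single libraries. Its adjusted p in limma was 0.0587 without normal hIECs replicate 2, 0.0948 without replicate 2 of normal hIECs with PM10, and 0.131 when only the 2 groups compared were fitted, within a range of 0.0160 to 0.131 over the alternatives. In inflamed hIECs the PM10 difference was -0.26 on the log2 scale (95% interval -0.57 to 0.05, adjusted p = 0.218). The PM10 differences in the 2 backgrounds were not shown to differ, at 0.45 on the log2 scale and an adjusted p of 0.203 in the interaction. Against normal hIECs, inflamed hIECs gave -0.06 (adjusted p = 0.740). Between the PM10 groups IL18 was higher with cytokines by 0.39 (adjusted p = 0.0325), which was lost without replicate 2 of normal hIECs with PM10 (0.176), without inflamed hIECs with PM10 replicate 1 (0.0600) or replicate 2 (0.141) and with only these groups in the fit (0.0709), in a range of 0.00435 to 0.176. With a pseudocount of 0.1 this difference was 0.99 and the interaction 1.08, on the same sides of the threshold.

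IL18BP (chr11:71998613-72007315, plus strand), the decoy that binds IL18, rose with the cytokines. It was at 2.19 and 1.68 FPKM in normal hIECs, 2.82 and 2.76 FPKM in normal hIECs with PM10, 7.35 and 8.60 FPKM in inflamed hIECs and 7.85 and 8.24 FPKM in inflamed hIECs with PM10. The 4 cytokine libraries lay above all others, and the 2 cytokine groups overlapped. The mean was 4.12 times higher in inflamed than in normal hIECs, a log2 difference of 1.61 ± 0.10 (SE, limma, adjusted p = 1.46e-05). Between the PM10 groups it was 2.88 times higher, at 1.25 ± 0.10 (adjusted p = 3.67e-05). PM10 in normal hIECs gave 0.37 (adjusted p = 0.0652), which passed only when normal hIECs replicate 1 was left out (0.0259, within a range of 0.0259 to 0.218). Exons of IL18BP overlap NUMA1 on the opposite strand, and these libraries do not separate strands. NUMA1 went the other way, down by 0.80 on the log2 scale in inflamed hIECs, its range over all libraries being 14.3 to 29.2 FPKM. How many NUMA1 reads were counted as IL18BP in any group was not tested.

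The decoy was read above the cytokine in every library. IL18BP over IL18 was 1.64 and 1.50 in normal hIECs, 5.26 and 12.8 in normal hIECs with PM10, 6.29 and 7.68 in inflamed hIECs and 10.96 and 9.50 in inflamed hIECs with PM10. The normal libraries were the lowest 2 of the 8, and the wide gap within normal hIECs with PM10 lies where IL18 was near the floor. These ratios were not tested and are given as a description.

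**Figure D2:**
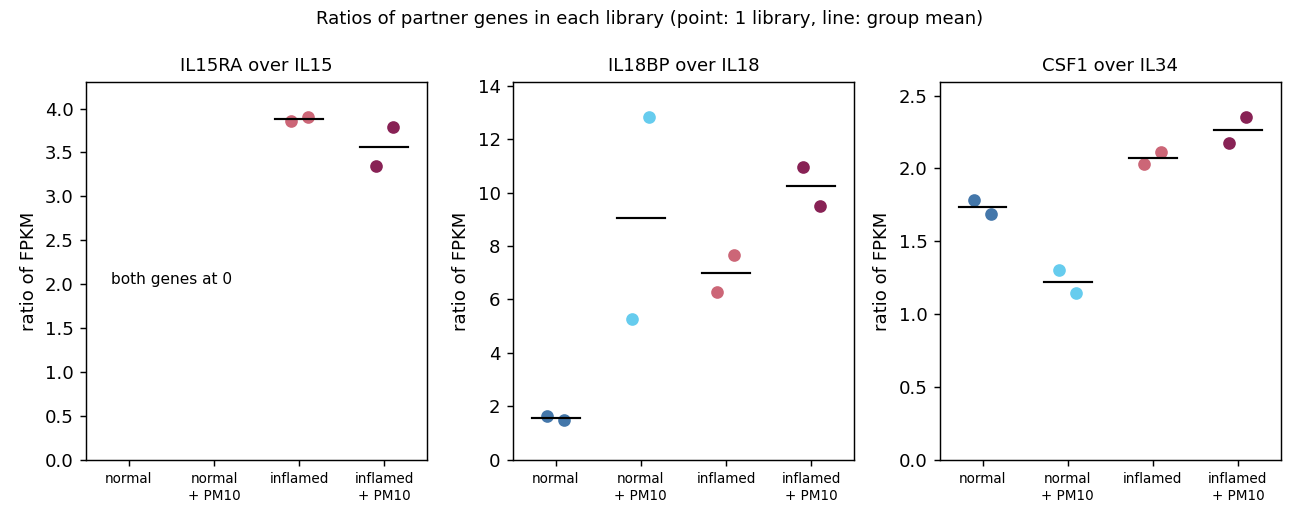
Ratios of FPKM between partner genes (vertical axes) in the 4 groups, with 1 point per library and a line at the group mean. IL15RA over IL15 stays between 3.34 and 3.91 in the cytokine libraries, IL18BP over IL18 is 1.50 and 1.64 in normal hIECs and at least 5.26 elsewhere, and CSF1 over IL34 is lowest, 1.14 and 1.30, in normal hIECs with PM10.

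CSF1 (chr1:109910242-109930992, plus strand), the main growth factor of macrophages, was the most abundant of the 10 genes in every library. It was read at 5.43 and 5.39 FPKM in normal hIECs, 6.23 and 6.20 FPKM in normal hIECs with PM10, 32.4 and 33.3 FPKM in inflamed hIECs and 31.8 and 31.4 FPKM in inflamed hIECs with PM10. Libraries of a group differed by less than 1 FPKM, and no 2 groups overlapped. Inflamed hIECs were 6.08 times above normal hIECs, a log2 difference of 2.40 ± 0.05 (SE, limma, adjusted p = 4.44e-08), and the PM10 pair gave 5.09 times, at 2.18 ± 0.05 (adjusted p = 5.95e-08). PM10 gave 0.17 in normal hIECs (adjusted p = 0.0704) and -0.05 in inflamed hIECs (adjusted p = 0.484), neither past the threshold. CSF1 ranked above 61.3% of the genes read in normal hIECs and above 90.3% of those read in inflamed hIECs.

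IL34 (chr16:70579895-70660682, plus strand), the second ligand of CSF1R, was called higher with the cytokines and, in normal hIECs, with PM10. Its values were 3.04 and 3.20 FPKM in normal hIECs, 4.77 and 5.43 FPKM in normal hIECs with PM10, 15.96 and 15.8 FPKM in inflamed hIECs and 14.6 and 13.4 FPKM in inflamed hIECs with PM10. No 2 groups overlapped, and PM10 went with higher values in normal hIECs and lower values in inflamed hIECs. The cytokine difference was 5.08-fold, 2.03 ± 0.07 on the log2 scale (SE, limma, adjusted p = 8.40e-07), and with PM10 present it was 2.74-fold, 1.30 ± 0.07 (adjusted p = 5.78e-06). In normal hIECs IL34 was 1.63-fold higher with PM10, 0.56 ± 0.07 (limma, adjusted p = 0.00764), a call lost in the alternatives given below. In inflamed hIECs PM10 gave -0.17 (95% interval -0.35 to 0.00272, adjusted p = 0.161).

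The difference between these PM10 responses was tested in the same fit. IL34 had an interaction of -0.74 ± 0.11 (SE, limma, adjusted p = 0.0109), the only one of the 6 genes tested past the threshold. It was lost without inflamed hIECs replicate 1 (0.0555) or replicate 2 (0.0512), in a range of 0.0103 to 0.0555 over the alternatives. The rise with PM10 in normal hIECs was lost without replicate 2 of normal hIECs with PM10 (0.0559) and with only the 2 groups in the fit (0.112), in a range of 0.00729 to 0.112. The direction was the same in each of these. CSF1 over IL34 was 1.78 and 1.68 in normal hIECs, 1.30 and 1.14 in normal hIECs with PM10, 2.03 and 2.11 in inflamed hIECs and 2.18 and 2.36 in inflamed hIECs with PM10. The 2 ligands of CSF1R were therefore nearest to each other in normal hIECs with PM10.

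IL33 (chr9:6215786-6257983, plus strand), an alarmin kept in the nucleus, was listed at 0 in all 8 libraries. The same held for CSF2 (chr5:132073789-132076170, plus strand), which encodes GM-CSF, and for CSF3 (chr17:40015361-40017813, plus strand), which encodes G-CSF. Of the 10 genes, 6 were therefore tested in limma, IL7 was tested alone, and these 3 gave no comparison. They stayed at 0 in the same 4 cytokine libraries in which CXCL10 was at 1254 FPKM or more.

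The 10 genes together summed to 12.2 and 11.4 FPKM in normal hIECs, 14.4 and 14.9 FPKM with PM10, 81.3 and 84.4 FPKM in inflamed hIECs and 79.2 and 78.3 FPKM in inflamed hIECs with PM10. By mean level the order in normal hIECs was CSF1, IL34, IL18BP, IL18 and IL7. In inflamed hIECs it was CSF1, IL15RA, IL34, IL18BP, IL15, IL18 and IL7, of which the last 2 overlapped. IL18 and IL7 also overlapped in normal hIECs with PM10, and in inflamed hIECs with PM10 IL7 stood above IL18 without overlap. The other neighbours in these orders did not overlap in any group.

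Of the 6 genes tested, 4 were above 0 in all libraries, namely CSF1, IL34, IL18BP and IL18. In inflamed against normal hIECs 3 of these 4 were called higher and none lower, where 25.9% of the 14206 genes were called higher, 30.3% lower and 56.2% in either direction. With PM10 present all 4 were called higher, IL18 with the losses given above, where 25.8% of all genes were called higher, 39.6% lower and 65.4% in either direction. These comparisons share no library. The calls of IL15 and IL15RA were set by the filter and are not counted here.

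For PM10 in normal hIECs, IL34 was called higher, where 5.51% of all genes were, and IL18 was called lower, where 3.72% were (9.23% in either direction). IL18 had met the filter only through libraries without PM10, where it was higher, so its call is not read against that share. IL15 and IL15RA were at 0 in both groups and could not differ. Of all calls in this comparison 59.7% were higher, which became 42.9% with the libraries centred on their medians. For PM10 in inflamed hIECs, limma called 0 of the 6 genes, where 15.2% of all genes were called in either direction (6.22% higher and 9.02% lower), and none had an unadjusted p under 0.05. The interaction was called for IL34 alone, where 4.48% of all genes were called in that direction, 2.11% in the opposite one and 6.6% in either. An unadjusted p under 0.05 was found for 4 of the 6 genes. The share of all genes at that unadjusted threshold is not given for either comparison, so nothing is read from these unadjusted counts. The comparisons of PM10 and of cytokines in normal hIECs share the normal libraries.

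Cell markers moved with PM10 as well. In normal hIECs 3 of 10 mesenchymal markers were called lower, where 3.72% of all genes were, and LUM was called higher. The LUM call was lost without any 1 library other than the 2 of normal hIECs. Median centring, quantile normalization, no variance trend or the replicate number as a block ended it too. With quantile normalization 1 marker was called lower. ACTA2 averaged 688 FPKM without and 534 FPKM with PM10, TAGLN 876 and 706 FPKM, and VIM 914 and 726 FPKM. Without either library of normal hIECs with PM10, or with only these groups in the fit, 0 of the 10 were called. AIF1, the macrophage marker, was at 2.84 and 2.74 FPKM without and 0.825 and 0.706 FPKM with PM10, and reached 1 FPKM in normal hIECs only, so it has no test. In inflamed hIECs 6 of 10 mesenchymal markers were called lower with PM10, where 9.02% of all genes were, and LUM higher. COL3A1 went from a mean of 708 to 470.3 FPKM (log2 difference -0.59, limma, adjusted p = 0.000334) and DCN from 65.4 to 39.4 FPKM (-0.72, adjusted p = 0.00144). With a library left out, 3 to 7 of the 10 were called lower. KRT18 was lower (-0.35, adjusted p = 0.0169) and LGR5 higher (0.49, adjusted p = 0.0172), and each lost its call without some single libraries, at up to 0.105 and 0.102. The interaction was called for 7 of 10 mesenchymal markers, 3 higher and 4 lower, where 6.6% of all genes were called. With the replicate number as a block 1 was called higher and 3 lower. The counts were 0 and 3 with no variance trend, and 1 and 4 with quantile normalization. They also shifted when single libraries were left out. Of the neuronal markers in inflamed hIECs, STMN2 was higher with PM10 (0.25, limma, adjusted p = 0.0163), SNAP25 lower (-0.38, adjusted p = 0.0137) and TUBB3 not called. Of all genes 15.2% were called in either direction. Both calls were lost without any 1 library of the inflamed groups. SNAP25 also had an interaction of -0.47 (adjusted p = 0.0373), lost with the replicate number as a block. The part of these cells in the PM10 differences and interactions of IL18, IL34, IL7R, SDC1, IL1RAP and TSLP was not tested.

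**Figure D3:**
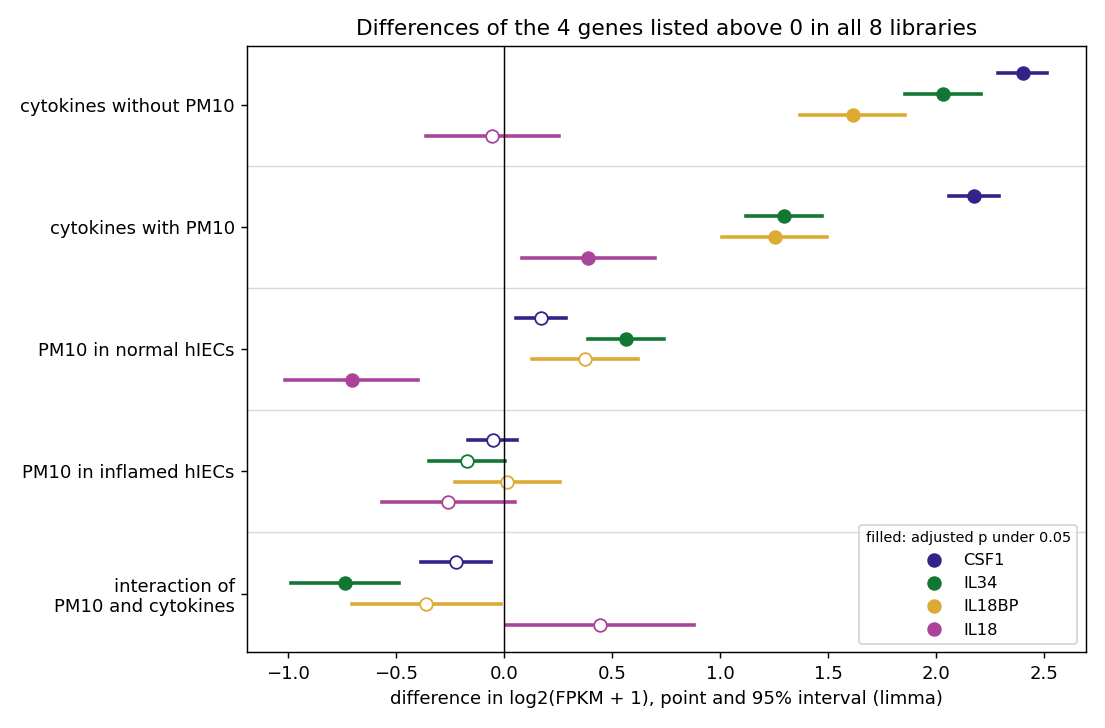
Differences in log2(FPKM + 1) from limma (horizontal axis) with 95% intervals for the 4 genes above 0 in all 8 libraries, in the 5 comparisons, with filled points at adjusted p under 0.05. CSF1, IL34 and IL18BP lie between 1.25 and 2.40 in both cytokine comparisons, and all 4 intervals for PM10 in inflamed hIECs include 0.

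The receptors of these cytokines were largely unread. Of 15 receptor genes, 8 were listed at 0 in all libraries, namely IL2RG, CRLF2, IL2RA, IL18RAP, IL1RL1, CSF1R, CSF2RB and CSF3R. The common gamma chain IL2RG, the IL33 receptor IL1RL1 and the CSF1 and IL34 receptor CSF1R were thus all at 0 in the libraries that held their ligands or partners. CSF2RA, the alpha chain for GM-CSF, did not exceed 0.532 FPKM. The other 6 passed the FPKM minimum.

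Of those 6, IL7R, IL1RAP and SDC1 met the minimum on either side of the cytokine comparisons, and all 3 were called higher in both. Of all genes, 25.9% and 25.8% were called higher there, and 56.2% and 65.4% in either direction. IL18R1, IL2RB and PTPRZ1 met it on one side only, so their values are given without a test. IL18R1, the ligand-binding chain for IL18, averaged 0.558 FPKM in normal and 3.09 FPKM in inflamed hIECs. IL1RAP, the accessory chain of the IL1 and IL33 receptors, rose from 4.59 to 9.26 FPKM (log2 difference 0.88, limma, adjusted p = 2.99e-05). IL2RB, which binds IL15, averaged 0.493 and 0.915 FPKM, a low level throughout. PTPRZ1 and SDC1, known as further binding partners of IL34, went apart. PTPRZ1 averaged 3.82 FPKM in normal and 0.271 FPKM in inflamed hIECs. SDC1 rose from 9.52 to 17.05 FPKM (log2 difference 0.78, limma, adjusted p = 6.03e-05).

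IL7R, the receptor chain for IL7, moved in opposite directions with PM10. It was read at 2.65 and 2.51 FPKM in normal hIECs, 1.32 and 1.35 FPKM in normal hIECs with PM10, 5.28 and 5.46 FPKM in inflamed hIECs and 8.28 and 7.97 FPKM in inflamed hIECs with PM10. No 2 groups overlapped. PM10 lowered it in normal hIECs by -0.61 on the log2 scale (limma, adjusted p = 0.00361, and 0.0921 with only these groups in the fit) and raised it in inflamed hIECs by 0.52 (adjusted p = 0.00332). The interaction was 1.13 ± 0.09 (SE, adjusted p = 0.00171). The mesenchymal markers described above moved in the same comparisons.

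SDC1, a heparan sulfate proteoglycan of epithelial and plasma cells, showed the second interaction among the receptors. Its values were 9.01 and 10.0 FPKM in normal hIECs, 8.39 and 8.54 FPKM with PM10, 16.3 and 17.8 FPKM in inflamed hIECs and 24.0 and 23.9 FPKM in inflamed hIECs with PM10. PM10 gave 0.47 in inflamed hIECs (limma, adjusted p = 0.00554) and -0.15 in normal hIECs (adjusted p = 0.186), with an interaction of 0.62 ± 0.10 (SE, adjusted p = 0.0136). The interaction was lost without inflamed hIECs replicate 1 or any single library of the PM10 groups (0.0549 to 0.0616). IL1RAP rose with PM10 in inflamed hIECs as well, to 12.5 FPKM (log2 difference 0.40, adjusted p = 0.00935, and 0.0560, 0.0653 or 0.0695 without inflamed hIECs replicate 1 or 2 or inflamed hIECs with PM10 replicate 2).

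Relatives of the ligands were nearly all at 0. Of 16 further ligands of the gamma chain, CSF2 and IL1 families, 15 were listed at 0 in all libraries, among them IL2, IL1A, IL1B, IL1RN and IL36G. TSLP, an epithelial cytokine that signals through IL7R, was the exception. It was at 1.33 and 1.61 FPKM in normal hIECs, 1.21 and 0.954 FPKM with PM10, 0.836 and 0.951 FPKM in inflamed hIECs and 0.376 and 0.387 FPKM in inflamed hIECs with PM10. The last group was below all others, and the 2 middle groups lay close together without overlapping.

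With the cytokines CSF1, IL34 and IL18BP were higher, while TSLP averaged lower. It reached 1 FPKM only in libraries without cytokines, so its cytokine differences are given without a test, at -0.38 on the log2 scale and, with PM10 present, at -0.59. PM10 lowered it in inflamed hIECs by -0.45 (limma, adjusted p = 0.0318). That call was lost with quantile normalization (0.137) and without either library of inflamed hIECs (0.0950 and 0.142) or of inflamed hIECs with PM10 (0.125 and 0.116).

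Genes that process these cytokines or carry their signal were all read, 18 of 18. In inflamed against normal hIECs, 10 were higher and 1 was lower, and with PM10 present 11 were higher and 2 were lower. Of these 11, PYCARD (log2 difference 0.41, limma, adjusted p = 0.0443) lost its call in 9 alternatives. Among these were the replicate number as a block (0.0610) and no filter on low values (0.0650). The shares called, 11 of 18 and 13 of 18, were near the 56.2% and 65.4% of all genes in either direction, while 25.9% and 25.8% of all genes were called higher. The list was chosen with these data known, and nothing particular to it is read from its counts. CASP1, the protease that activates IL18, was listed at 0 in both normal libraries and at 8.99 and 10.2 FPKM in inflamed hIECs. It reached 1 FPKM only with cytokines, so its call in those counts was set by the filter. IL18 itself did not pass the test in this comparison. CASP4, the inflammatory caspase that senses intracellular lipopolysaccharide, rose from 1.39 to 22.9 FPKM (log2 difference 3.33, limma, adjusted p = 2.56e-07). GSDMD, the pore protein through which mature IL18 leaves cells, rose from 3.48 to 7.47 FPKM (0.91, adjusted p = 0.000101). CASP8 rose from 2.93 to 8.72 FPKM (1.31, adjusted p = 1.10e-05).

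On the signalling side, MYD88, the adaptor of the IL18 and IL33 receptors, rose from 8.48 to 16.95 FPKM (log2 difference 0.92, limma, adjusted p = 4.57e-05), and IRAK1, the kinase it recruits, rose from 9.38 to 15.4 FPKM (0.66, adjusted p = 0.000227). JAK2, which serves the GM-CSF receptor, rose from 2.07 to 4.01 FPKM. JAK3, the kinase of the common gamma chain, was lower with cytokines by -0.30 (adjusted p = 0.0137), and this was lost without inflamed hIECs replicate 1 (0.0665) or replicate 2 (0.0506). STAT5A, which acts below the IL7 and IL15 receptors, rose from 1.04 to 2.96 FPKM (0.98, adjusted p = 0.00497), and between the PM10 groups STAT5B was lower with cytokines, by -0.34 (adjusted p = 0.0111, and 0.0680 or 0.0643 without replicate 2 of normal or inflamed hIECs with PM10). Without PM10, STAT5B was not called in the fit of all libraries, but was without normal hIECs replicate 2 (-0.24, adjusted p = 0.0399). A difference between those STAT5B responses was not shown (interaction adjusted p = 0.351). The median over the 18 genes, CASP1 among them, was 0.53 for cytokines without and 0.48 with PM10. Over all genes it was -0.03 and -0.11. The list was chosen with these data known, so nothing particular to it is read from these medians.

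For PM10 in normal hIECs 1 of the 18 genes was called, where 9.23% of all genes were. This was IRAK1 (log2 difference 0.36, limma, adjusted p = 0.0294), and that call was lost with only these groups in the fit (0.161) and without any library but normal hIECs replicate 1 (0.0599 to 0.136). In inflamed hIECs 2 of 18 were called, where 15.2% of all genes were. IRAK1 was higher (0.34, adjusted p = 0.0248) and JAK3 lower (-0.41, adjusted p = 0.0158). The IRAK1 call was lost without any 1 of the 4 cytokine libraries (0.0852 to 0.134), and that of JAK3 without inflamed hIECs replicate 1 (0.0781) or 2 (0.0899) or inflamed hIECs with PM10 replicate 2 (0.0964). The interaction was called for 0 of 18, with 1 at an unadjusted p under 0.05, a threshold for which no share of all genes is given.

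**Figure D4:**
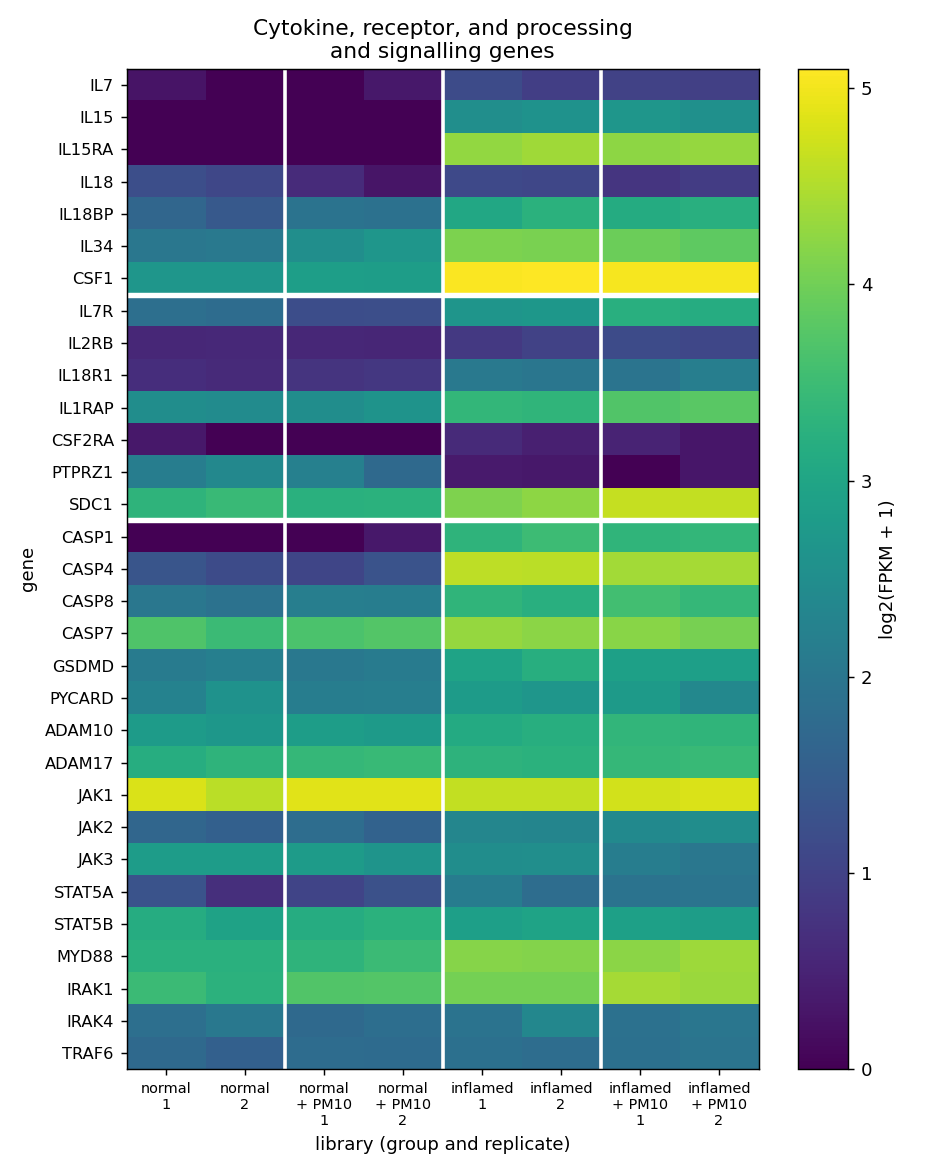
log2(FPKM + 1), shown by colour, of the cytokine genes, their receptors and genes of the processing and signalling list (rows) in each of the 8 libraries (columns). Genes at 0 in all libraries are left out. CASP1, CASP4, IL15, IL15RA and CSF1 are brighter in the 4 cytokine libraries, and IL7R is darkest in normal hIECs with PM10, at 1.32 and 1.35 FPKM.

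For each gene tested, the 3 genes with the most similar profile over the 8 libraries were taken by the root mean square distance between log2(FPKM + 1) values centred on their own mean. CSF1 lay nearest to the interferon-induced genes IFIT2 (0.061), IFI44L (0.071) and IFI44 (0.075). IL15 lay nearest to TAPBPL (0.065), SLC6A6 (0.072) and CALHM6 (0.074), and IL15RA to GBP4 (0.083), TYMP (0.088) and FDCSP (0.097). IL34 was nearest to NFKB1 (0.114), APOL2 (0.119) and NFKBIE (0.119), of which the first and last encode an NF-kB subunit and an NF-kB inhibitor. IL18BP was nearest to PRKG2 (0.083), ZC3H12A (0.096) and CXCL16 (0.0997). IL18 had more distant neighbours, C12orf75 (0.120), CAV1 (0.121) and HIST2H2AC (0.123). Likeness over 8 libraries of 4 groups mostly records the group means, and ranking by Pearson correlation instead kept 0 of 3 neighbours for IL15, IL18BP, IL34 and CSF1 and 1 of 3 for IL15RA and IL18.

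Levels of other cell markers moved with the cytokine comparison as well. Of the 4 epithelial markers tested, LGR5 rose from 2.32 to 5.47 FPKM and SOX9, KRT8 and KRT18 were lower, SOX9 going from 14.2 to 3.92 FPKM, where 30.3% of all genes were called lower. Of 10 mesenchymal markers, 4 were higher and 4 lower, against 56.2% of all genes called in either direction, and their sum went from 5028 and 5010 FPKM in normal to 5664 and 5731 FPKM in inflamed hIECs. The neuronal markers STMN2, SNAP25 and TUBB3 were lower in both cytokine comparisons, where 30.3% and 39.6% of all genes were, going from 118 to 53.2 FPKM, 18.5 to 9.07 FPKM and 59.7 to 49.0 FPKM without PM10 (limma, adjusted p = 1.89e-06, 2.88e-05 and 0.00552). With PM10 the TUBB3 call (0.0264) was lost with median centring (0.0973) and without replicate 2 of normal hIECs with PM10 (0.167) or either library of inflamed hIECs with PM10 (0.0882 and 0.102). AIF1, a macrophage marker, went from 2.84 and 2.74 FPKM to 0 and 0.463 FPKM, while PTPRC, carried by all white blood cells, was at 0 in the 4 cytokine libraries. CD68, another macrophage marker, averaged 0.506 FPKM in normal hIECs, 0.154 FPKM with PM10, 0.366 FPKM in inflamed hIECs and 1.47 FPKM in inflamed hIECs with PM10, the group through which alone it met the minimum. Their part in the rise of CSF1, IL34, IL15 and IL15RA was not tested.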

How the data were processed

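RNA-seq of 8 libraries, 2 per group, was analysed from the FPKM values the authors deposited, 1 value per gene and library. Per the labels and the study's methods, the libraries were poly-A selected and not strand-specific, and the authors used Cutadapt, HISAT2 (hg38) and StringTie to obtain FPKM. FPKM holds no counts, so no count test was run. Values were compared as log2(FPKM + 1) with limma 3.58.1 (R 4.3.3), with a variance trend, in 1 fit of all 8 libraries. A gene entered when 2 or more libraries reached 1 FPKM, which left 14206 genes. The Benjamini-Hochberg adjustment was made separately in the 5 comparisons, and 0.05 was the threshold. The labels give a treatment of 10 days for every group, and doses and PM10 time come from the study's methods. Genes and lists were chosen with earlier results of these data known. All 10 genes, genes of the lists and the 3 nearest profiles were named, and some genes of the lists are not reported here. AIF1, PTPRC and other markers come from the marker lists. NUMA1 and ZC2HC1A were named for their overlap with IL18BP and IL7. On simulated data for cytokines without PM10 (14206 genes), limma called 86 of 100 changes of 1 and 99 of 100 of 2 on the log2 scale, and 4.64% of its calls were unchanged genes. In that simulation 200 genes changed, and each gene had the same spread in all groups. In the data 56.2% of genes were called in this comparison and the normal libraries differed more, so these rates need not hold there. Alternatives covered the pseudocount, filters, scaling, the groups in the fit, the variance trend, the replicate number and each library left out.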

Additional observations from a re-analysis of the deposited data

Results flagged for a closer look

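IL34, IL7R and SDC1 were picked out because PM10 acted differently on them in normal and in inflamed hIECs, by limma's interaction over 14206 genes. For IL34 the interaction was -0.74 on the log2 scale (adjusted p = 0.0109), with PM10 differences of 0.56 in normal and -0.17 in inflamed hIECs, and the call was lost without inflamed hIECs replicate 1 (0.0555) or replicate 2 (0.0512). IL7R had 1.13 (adjusted p = 0.00171), with -0.61 and 0.52, and no alternative ended that call. SDC1 had 0.62 (adjusted p = 0.0136), with -0.15 and 0.47, and its call was lost in 5 alternatives, each leaving out 1 library, at adjusted p of 0.0549 to 0.0616.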

How the results depend on the processing

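In both cytokine comparisons CSF1, IL34 and IL18BP were called in every alternative. Among the 6 genes tested no called value changed sign, while the uncalled IL18 value for cytokines without PM10, -0.06, was 0.05 with quantile normalization and 0.01 without normal hIECs replicate 1. Uncalled values near 0 of IL18BP and IL15 for PM10 in inflamed hIECs, and of IL15 in the interaction, also changed sign when single libraries were left out. PM10 in normal hIECs was the least stable comparison. It called 1311 of all genes and 2 of the 10 genes, against 23 and 0 with only the 2 groups in the fit, and 194 to 2627 and 0 to 3 with each library left out. PM10 in inflamed hIECs called 2165 of all genes, and 675 to 2992 with a library left out. The interaction called 937 of all genes and 1 of the 10, and 263 to 1266 and 0 to 1 with a library left out. Where a group was left with 1 library, that library was assumed to vary like the others. The cause of these shifts was not tested. Calls that were higher made up 59.7% for PM10 in normal hIECs, 42.9% with median centring and 49.8% with quantile normalization, and in the interaction 32.0%, 45.7% and 46.6%. Libraries with the same replicate number did not deviate together, with correlations of -0.0015 to 0.079, and a fit with the replicate number as a block called 1051 genes for PM10 in normal hIECs and 1966 in inflamed hIECs, and changed no call of the 10 genes. Without a filter, IL7 was also called in both cytokine comparisons (adjusted p = 0.00251 and 0.00332). Genes under about 1 FPKM, IL18 and IL7 among them, rest on a mean depth of a few reads, and 0 stands for a depth under 1.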
